A study of Equus caballus with 4 samples.

Results

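DNA replication and S phase genes were followed in differentiating equine satellite cells, the stem cells of skeletal muscle, as a set of 44 genes chosen by symbol. Members were all gene probes on the array whose gene name was exactly 1 of these symbols. The set held 65 of the 43603 gene probes, and these named 40 of the 44 genes. RNA came from cells of the m. semitendinosus at day 3 of differentiation. The treated cultures had gamma-oryzanol (GO), ferulic acid esters of sterols found in rice bran oil, in the medium at 0.125 µM over 24 h. Hydrogen peroxide (H2O2) was present at 3 mM in the last 1 h of that time. GO was absent from the control cultures. Whether these were given H2O2 is not in the labels, and the study describes its controls as exposed to H2O2 with the DMSO vehicle alone. The study worked with a primary cell line chosen for its viability and fusion, and the labels do not tie the replicates to separate animals. Each of 4 arrays on 1 slide carried treated RNA in red (Cy5) and control RNA in green (Cy3). The dyes were not swapped, so dye and treatment cannot be told apart on any array. The series' design counts 4 control replicates, although the sample descriptions give the control the same replicate tag on every array. The spread between the control channels was close to that between the treated channels, with a median SD over all tested probes of 0.0967 and 0.0997 on the log2 scale. These SDs also hold differences between the arrays themselves, so they do not tell whether the controls were separate cultures.

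DNA is copied once per cell cycle, in S phase. The origin recognition complex with CDC6 and CDT1 loads the MCM helicase on DNA, and CDC45 and the GINS complex switch it on. Primase and polymerase alpha start each strand, the clamp loader RFC places the sliding clamp PCNA, and polymerases delta and epsilon extend it. FEN1 and LIG1 join the Okazaki fragments, while RRM1, RRM2, TYMS and TK1 supply the nucleotides. E2F factors switch on most of these genes before S phase. Muscle precursors leave the cell cycle as they fuse and mature, and this programme is then shut down.

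Replication genes were measurable in nearly full number. At least 1 channel was well above background on all 4 arrays for 62 of the 65 probes, which covered 37 genes, and 61 of these probes passed in both channels. No member spot was saturated or marked as an outlier. The 3 probes left out of the tests were those of CCNE2 (cyclin E2, a driver of S phase entry), CDC25A (the phosphatase that activates CDK2) and POLE (the catalytic subunit of polymerase epsilon). CCNE2 was well above background in the treated channel on 1 array, and CDC25A and POLE on 0 arrays in either channel. ORC1, POLA1, PRIM2 and UNG had no probe under their symbol. The array's description column gave each of these 4 genes 1 probe under a transcript or locus name, outside the rule. The log2 ratio of the ORC1 probe was -0.21, 0.26, -0.43 and -0.23 on replicates 1 to 4, and that of the PRIM2 probe was 0.17, 0.22, 0.04 and 0.12. The ORC1 probe was well above background on 4 arrays in both channels. The PRIM2 probe was so on 4 arrays in treated cells but on 2 in control cells, and passed the filter through the treated channel alone. The probes described as POLA1 and UNG did not pass the background filter.

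All ratios below are log2 of treated over control within an array, with 0 for no difference. Genes are represented by their brightest tested probe, and probes of 1 gene that disagree are named. The median over the 62 member probes was -0.16 on replicate 1, 0.18 on replicate 2, -0.35 on replicate 3 and -0.24 on replicate 4. In fold terms these medians were 1.12-fold lower, 1.13-fold higher, 1.28-fold lower and 1.18-fold lower in treated cells. The medians of all 24230 tested probes on the same arrays were -0.01, 0.01, 0.00 and 0.00. Member probes were above 0 for 9 of 62 on replicate 1, for 58 on replicate 2, for 1 on replicate 3 and for 4 on replicate 4. Replicate 2 therefore stood on the other side of 0 from the other arrays for most of the set. The pattern of a positive ratio on replicate 2 with negative ratios on replicates 1, 3 and 4 was held by 48 of 62 member probes (77.4%), as against 7.7% of all probes tested. It was held by 30 of 37 genes.

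**Figure D1:**
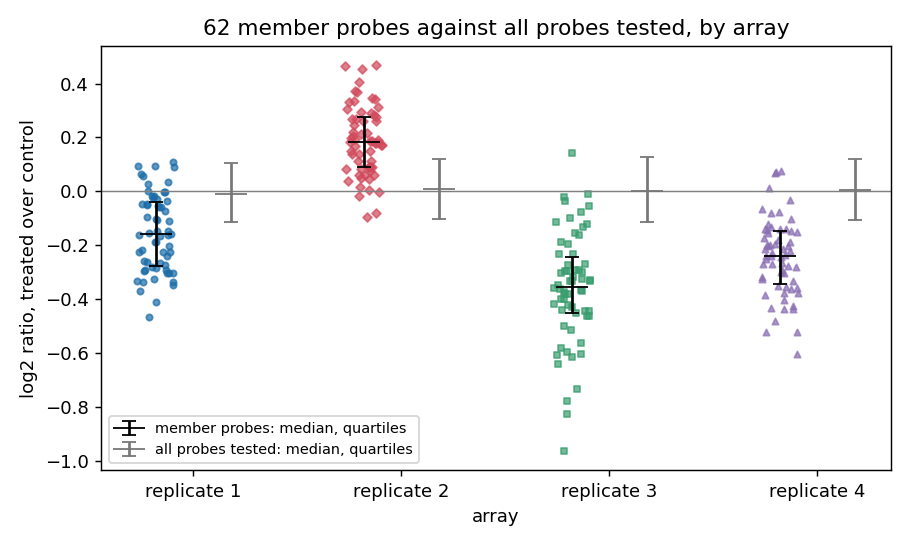
Log2 ratio of treated over control for the 62 tested member probes (coloured points, 1 per probe, spread sideways for visibility) on each of 4 arrays, with the median and quartiles of the members (black) and of all 24230 tested probes (grey). The member medians are -0.16, 0.18, -0.35 and -0.24, and the medians of all probes lie at about 0.

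Over the 4 arrays, 1 of 62 member probes passed the limma test at an adjusted p under 0.05, as against 17.1% of all probes in either direction. That probe, of GINS3, was lower in treated cells, a direction called for 7.59% of all probes. The mean ratio was below 0 for 57 of 62 probes and for 34 of 37 genes, with a median over probes of -0.13 beside 0.00 for all probes. That median was -0.06 without replicate 3, and -0.22 from the deposited processed signals. At an unadjusted p under 0.05 by limma there were 16 of 62 member probes, beside 8898 of all 24230 probes, which is a larger share. The spread between arrays was wide, with a median SD of the ratio of 0.252 for member probes and 0.0934 for all probes. Each array was left out in turn. Without replicate 2, 33 of 62 member probes (53.2%) and 20 of 37 genes passed as lower in treated cells, as against 7.51% of all probes, and 0 passed as higher by limma. The median ratio was then -0.24, or 1.18-fold lower, and 59 of 62 probes were below 0. Replicate 2 was the array where 58 of the 62 were above 0, so leaving it out favours calls as lower among them. These counts depend on which array was dropped and are no separate support for a decrease. Without replicate 1, 3 or 4 the count of member probes called was 0 by limma in each case, with 2 at an unadjusted p under 0.05 each time. Over all 24230 probes these fits called 2, 38 and 0, so a count of 0 there says nothing particular of the members. At an unadjusted p under 0.05 by limma they gave 6484, 7309 and 6694 of all probes. Replicate 2 is a replicate of the same group as the others, so its difference from them was described and not tested.

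The channels were read apart to see where the arrays differed. Each probe's log2 level was set against its own mean over the 8 channel values, after scaling between arrays. The median member level in control cells was -0.03 on replicate 1, -0.03 on replicate 2, 0.17 on replicate 3 and 0.15 on replicate 4. In treated cells it was -0.16, 0.16, -0.16 and -0.08. The medians over all tested probes lay between -0.01 and 0.00 in each channel. Both channels thus varied for the members. The treated level was highest on replicate 2 for 56 of 62 member probes (90.3%), as against 23.5% of all probes. The control levels of replicates 3 and 4 both lay above those of replicates 1 and 2 for 48 member probes (77.4%), as against 22.2% of all probes. The median SD between arrays was 0.135 in control and 0.185 in treated channels for members. In RNA from whole cultures, fewer S phase cells and less replication RNA per cell cannot be told apart.

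**Figure D2:**
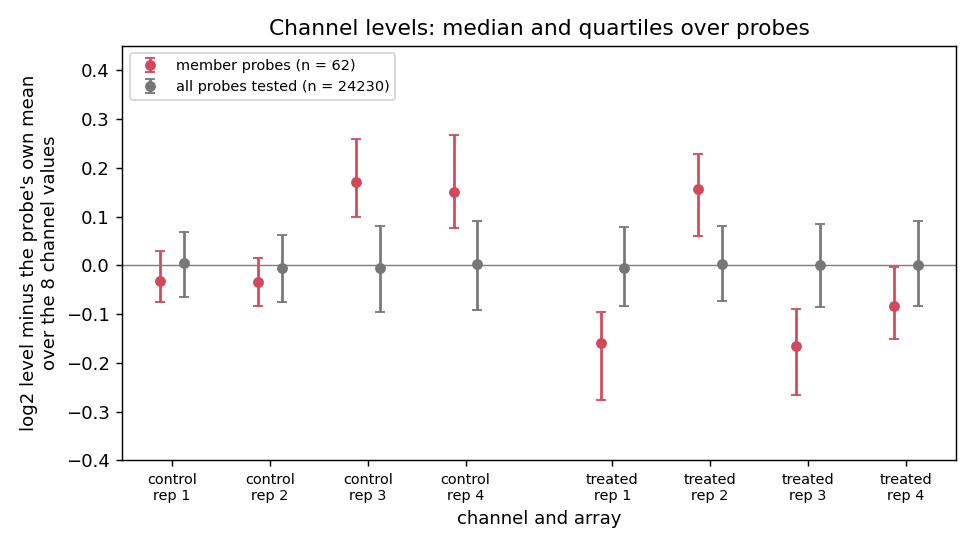
Median (points) and quartiles (bars) over probes of the log2 channel level minus the probe's own mean over the 8 channel values, for 62 member probes (red) and 24230 tested probes (grey). The members are high in the control channel of replicates 3 and 4 (0.17 and 0.15) and in the treated channel of replicate 2 (0.16), and lowest in the treated channel of replicates 1 and 3.

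Nucleotide supply held the member with the widest range. RRM2, the regulatory subunit of ribonucleotide reductase, was measured by 1 probe at chr15:79982766-79982825 (EquCab1, minus strand). Its ratio was -0.37, 0.21, -0.96 and -0.48 on replicates 1 to 4, with a mean of -0.40 ± 0.48 (SD, n = 4) and a limma adjusted p of 0.134. Its log2 level in control cells was 10.104, 10.342, 10.525 and 10.562, and in treated cells 9.735, 10.555, 9.561 and 10.080. The treated level of replicate 2 lay just under the highest control level, and the treated levels of replicates 1, 3 and 4 were below every control level. Without replicate 2, the only array where its ratio was above 0, the mean was -0.60. TYMS, thymidylate synthase and the brightest of this role, had ratios of -0.22, 0.22, -0.40 and -0.13, and its 3 probes had means from -0.19 to -0.13. All 4 genes of this role (RRM1, RRM2, TK1, TYMS) showed the pattern and had a mean below 0.

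Primase and polymerases had 5 tested members, and each showed the pattern. PRIM1, the catalytic subunit of primase, had ratios of -0.34, 0.17, -0.73 and -0.52, with a mean of -0.36 ± 0.38 (SD, n = 4) and a limma adjusted p of 0.108. Its second probe lay on another stretch of the transcript and gave a mean of -0.35. These probes are shown because they share no stretch and still gave nearly the same value. The 60 bases of each probe span 4502 and 1603 bases of EquCab1 unplaced sequence (chrUn:195813822-195818323 and chrUn:195812215-195813817, minus strand), so each is split by a gap in that build. No annotation was used to tell whether the gap is an intron.
PRIM1 probe A_69_P054167: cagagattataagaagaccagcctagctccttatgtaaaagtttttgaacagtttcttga
PRIM1 probe A_69_P054166: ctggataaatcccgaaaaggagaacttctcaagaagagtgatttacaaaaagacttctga
The means of the 5 ran from -0.36 for PRIM1 to -0.09 for POLD1 (the catalytic subunit of polymerase delta). POLA2, the regulatory subunit of polymerase alpha, had treated levels of 7.35, 7.64, 7.30 and 7.32, with replicate 2 apart from the rest. POLD3, an accessory subunit of polymerase delta, had 1 of the 5 narrowest ranges, with ratios of -0.15, 0.06, -0.19 and -0.20. It was dim, at log2 levels of 6.78 to 7.09.

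The MCM helicase, a ring of 6 different subunits, was uneven. MCM4 was the brightest-probe member nearest the threshold, with ratios of -0.41, 0.02, -0.64 and -0.32, a mean of -0.34 ± 0.27 (SD, n = 4) and a limma adjusted p of 0.0589. With array weights in limma it passed, at -0.35 and an adjusted p of 0.0377. Those weights were lowest for replicate 2 (0.775), the array where its ratio was above 0. MCM6, the brightest member of the ring, had ratios of -0.17, 0.20, -0.36 and -0.14, and a mean of -0.24 at its second probe. MCM5 varied most within the ring, with ratios of 0.07, 0.46, -0.56 and -0.15. MCM2, MCM3 and MCM5 were above 0 on replicate 1 as well as on replicate 2, so that 3 of the 6 subunits showed the full pattern. The mean ratio was below 0 for 5 of the 6.

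MCM2 and MCM3 were each covered by overlapping probes, which share a target and are not replicates of the treatment. The 5 MCM2 probes started within 15 bases of each other and had 45 bases in common, from chr16:196248-196307 to chr16:196263-196322 (EquCab1, plus strand). They are shown because they gave nearly the same ratio, with means from -0.08 to -0.03. Capitals mark the stretch held by all 5.
MCM2 probe A_69_P054610: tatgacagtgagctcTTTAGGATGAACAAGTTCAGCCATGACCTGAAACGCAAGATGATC
MCM2 probe A_69_P054609: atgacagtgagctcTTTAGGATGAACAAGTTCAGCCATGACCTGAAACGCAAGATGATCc
MCM2 probe A_69_P054608: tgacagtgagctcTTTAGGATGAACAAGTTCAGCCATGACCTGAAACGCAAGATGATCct
MCM2 probe A_69_P054607: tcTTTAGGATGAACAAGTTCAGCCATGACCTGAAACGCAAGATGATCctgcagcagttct
MCM2 probe A_69_P054606: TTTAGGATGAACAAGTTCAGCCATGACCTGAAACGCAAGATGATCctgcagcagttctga
On replicate 3 all 5 MCM2 probes were below 0, and on replicate 2 all were above. The 3 MCM3 probes shared a stretch of 20 bases, AATAAGAGTGTTTAATTGAA, and started 20 bases apart on chr20:43375123-43375222 (minus strand). Their values moved with position. The brightest MCM3 probe had ratios of 0.06, 0.29, -0.02 and 0.08, the middle one -0.05, 0.37, -0.27 and -0.03, and the last -0.15, 0.41, -0.46 and -0.25. The mean of MCM3 was thus 0.10, 0.00 or -0.11 by probe, and its direction cannot be given.

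**Figure D3:**
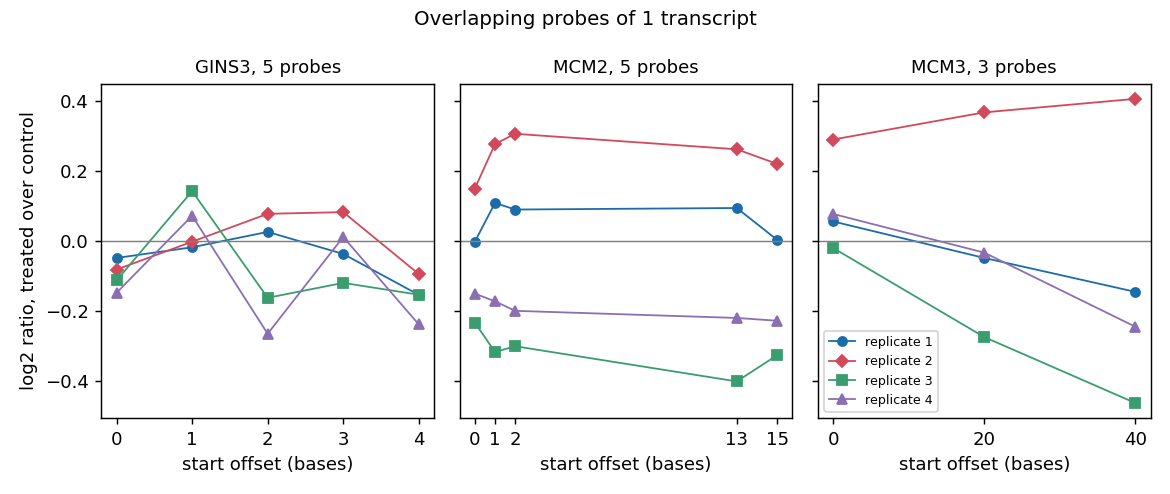
Log2 ratio of treated over control on each of 4 arrays (colours) at the overlapping probes of GINS3, MCM2 and MCM3, by the start of each probe in bases along the transcript strand from the first. Lines join probes of 1 array. The MCM2 probes keep the order of the arrays, the 4 arrays lie further apart at the MCM3 probe of offset 40 than at that of offset 0, and the GINS3 probes lie between -0.27 and 0.14 in changing order.

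Helicase activation held both a wide and a narrow member. CDC45, which with GINS turns the MCM ring into an active helicase, had ratios of -0.35, 0.35, -0.83 and -0.43. Its mean was -0.32 ± 0.49 (SD, n = 4), with a limma adjusted p of 0.218, and its second probe gave a mean of -0.20. At its brightest probe the treated level of CDC45 was 9.92, 10.63, 9.95 and 10.14, against control levels of 10.27, 10.29, 10.78 and 10.57. The groups overlapped there through replicate 2 alone. At the second probe the treated level of replicate 4 (9.65) also lay above the control level of replicate 2 (9.57). GINS3, a subunit of the 4-part GINS complex, carried the single call. The called probe had ratios of -0.15, -0.09, -0.15 and -0.24, with a mean of -0.16 ± 0.06 (SD, n = 4) and a limma adjusted p of 0.0443. It was well above background on 4 arrays in control cells and on 3 in treated cells, at log2 levels of 6.78 to 7.10. The call was lost with any 1 array left out (limma adjusted p of 0.0505 without replicate 2), with median centring and without background correction.

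GINS3 had 5 probes, each shifted by 1 base from the next, from chr3:10341306-10341365 to chr3:10341310-10341369 (EquCab1, plus strand). They are shown because 56 of 60 bases, in capitals, are common to all 5, while the other 4 probes did not pass the test.
GINS3 probe A_69_P081430: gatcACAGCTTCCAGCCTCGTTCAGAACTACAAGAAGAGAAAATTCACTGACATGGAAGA
GINS3 probe A_69_P081429: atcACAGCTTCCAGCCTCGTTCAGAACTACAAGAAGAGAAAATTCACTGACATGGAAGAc
GINS3 probe A_69_P081428: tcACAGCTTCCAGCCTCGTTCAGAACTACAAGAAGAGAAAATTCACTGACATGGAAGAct
GINS3 probe A_69_P081427: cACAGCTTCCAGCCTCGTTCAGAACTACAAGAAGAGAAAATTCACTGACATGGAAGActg
GINS3 probe A_69_P081426: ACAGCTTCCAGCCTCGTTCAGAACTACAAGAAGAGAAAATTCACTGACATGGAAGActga
From the first to the last, the mean ratios were -0.10, 0.05, -0.08, -0.02 and -0.16. The call at the last probe was thus not shared by neighbours that differ from it by a few end bases, and the limma adjusted p of the other 4 ran from 0.122 to 0.827. The GINS1, GINS2 and GINS4 probes had means of -0.04, -0.10 and -0.23, all with the pattern, and MCM10, which helps CDC45 onto origins, had a mean of -0.18.

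All 5 genes of the clamp and its loader showed the pattern. RFC3 had the widest range of them, with ratios of -0.22, 0.37, -0.60 and -0.36. PCNA, the sliding clamp that holds polymerases on DNA, had ratios of -0.23, 0.30, -0.29 and -0.20 and a limma adjusted p of 0.462. Its control levels were 10.89, 10.83, 11.14 and 11.29, and its treated levels were 10.66, 11.13, 10.85 and 11.08. PCNA was named at 3 probes, with means of -0.28, -0.11 and -0.01, all below 0 but of unequal size. The pair of lower means came from neighbouring probes on chromosome 22 (chr22:17971128-17971270 and chr22:17971251-17971310, plus strand), which are shown with their common bases in capitals.
PCNA probe A_69_P024312: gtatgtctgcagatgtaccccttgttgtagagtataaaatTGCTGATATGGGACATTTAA
PCNA probe A_69_P024311: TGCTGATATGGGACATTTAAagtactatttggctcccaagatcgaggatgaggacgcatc
The first of them was the brightest, with a mean of -0.11, and the second had a mean of -0.28.

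Helicase loading, Okazaki fragment joining and chromatin copying had medians of the mean ratio of -0.18, -0.07 and -0.08 over 3, 2 and 3 genes. ORC6, the smallest subunit of the origin recognition complex, had ratios of -0.16, -0.02, -0.38 and -0.14 at its brightest probe, which was below 0 on replicate 2. Its other 2 probes were above 0 there, at 0.05 and 0.09, and both showed the pattern. CDC6 had a mean of -0.26 and CDT1 of -0.12. LIG1, DNA ligase I, had ratios of -0.10, 0.34, -0.35 and -0.28, while FEN1, the flap nuclease, was above 0 on replicate 1 (0.10). CHAF1A and CHAF1B are subunits of the factor that places histones behind the fork. The ratios were 0.03, 0.34, -0.04 and 0.07 for CHAF1A and -0.02, 0.17, -0.29 and -0.19 for CHAF1B. Neither passed (limma adjusted p of 0.307 and 0.478), and CHAF1A was dim, at log2 levels of 7.09 to 7.43. UHRF1, which helps to copy DNA methylation, had a mean of -0.21 and a limma adjusted p of 0.0908.

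Regulators of S phase entry had 2 tested members. CCNE1, cyclin E1, had ratios of -0.10, 0.01, -0.10 and -0.38. E2F1, a transcription factor of the replication genes, had ratios of -0.06, 0.20, -0.06 and -0.07. The remaining member, SLBP, which binds the stem loop of histone mRNA, had ratios of -0.11, 0.15, -0.08 and -0.14. E2F1, SLBP, MCM3, GINS3 and POLD3 were the 5 genes of narrowest range, from 0.20 to 0.31, whereas RRM2, CDC45, MCM5, RFC3 and PRIM1 had the widest, from 0.90 to 1.18. Of the 15 genes with more than 1 tested probe, 13 had means of 1 sign at all probes, and the exceptions were GINS3 and MCM3.

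**Figure D4:**
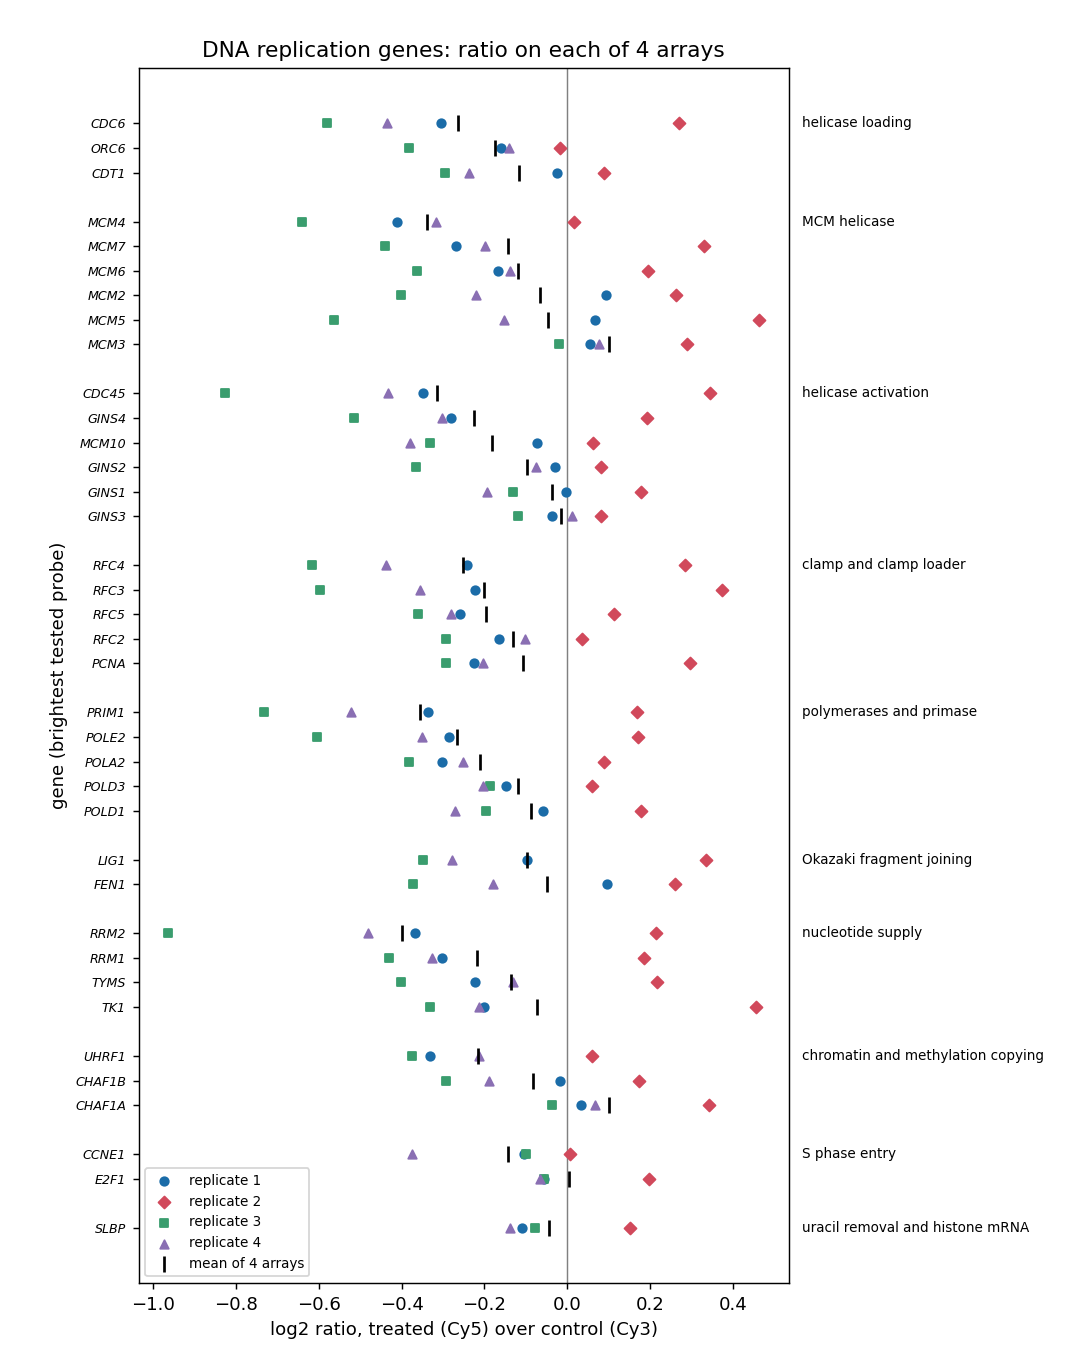
Log2 ratio of treated over control on each of 4 arrays for the brightest tested probe of 37 replication genes, grouped by role, with the mean of the arrays (black bar). Replicate 2 (red diamonds) lies above 0 for 36 of 37 genes, replicate 3 (green squares) above 0 for 0, and the widest spread is that of RRM2.

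Other genes of the cell cycle were set beside the members, with counts and medians only. A second list held 46 further replication genes, of which 34 were tested. Their median ratio was -0.15, 0.17, -0.24 and -0.22 on replicates 1 to 4. The pattern was shown by 20 of 34, as against 7.7% of all probes. WDHD1, a fork scaffold, fell in treated cells (-0.20, limma adjusted p of 0.0348), POLD2, a subunit of polymerase delta, rose (0.18, limma adjusted p of 0.0300), and RPA1, which coats single-stranded DNA, came next (-0.21, limma adjusted p of 0.0546). WDHD1 and POLD2 were the only calls of the 34, 1 lower and 1 higher, beside 7.59% and 9.49% of all probes. Without replicate 2, where their median was above 0, 17 of the 34 passed as lower, as against 7.51% of all probes. That count has the limit given for the members. POLD2 lost its call without replicate 2 (limma adjusted p of 0.0565). The fits without replicate 1, 3 or 4 called 0 genes of any list in this and the next paragraphs. Mitotic genes had wider medians of -0.26, 0.40, -0.60 and -0.51 over 16 tested genes, all 16 with the pattern (7.7% of all probes). By limma, 0 of them were called over 4 arrays, beside 17.1% of all probes. Without replicate 2, 15 were called lower, beside 7.51% of all probes. All 16 were above 0 on that array, so the same limit holds. Over 4 arrays their smallest adjusted p was that of NUSAP1, a spindle protein (-0.33, limma adjusted p of 0.0625). Next came BUB1B (-0.37) and CDK1 (-0.43).

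Genes of cell cycle exit showed this pattern in 1 of 11, a share near the 7.7% of all probes. Their medians were 0.02, 0.10, 0.03 and 0.03. CDKN1B, the inhibitor p27, rose by limma (0.17, adjusted p of 0.0387), with ratios of 0.25, 0.18, 0.12 and 0.14. It was 1 call among 11 genes, near the 9.49% of all probes called higher. Without replicate 2 the call of CDKN1B was lost (limma adjusted p of 0.0685). CDKN2C, the inhibitor p18, was the gene with the pattern (-0.29, 0.09, -0.55 and -0.62). Contractile genes had medians of 0.50, 0.07, 0.40 and 0.37 over 11 tested genes, and 8 rose over the 4 arrays by limma, among them ACTC1 (0.44), MYL1 (0.40) and TNNT3 (0.44), as against 9.49% of all probes called higher. Replicate 2 thus had the highest median for replication genes and the lowest for contractile genes, and the part of this difference in the members' ratios was not tested.

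**Figure D5:**
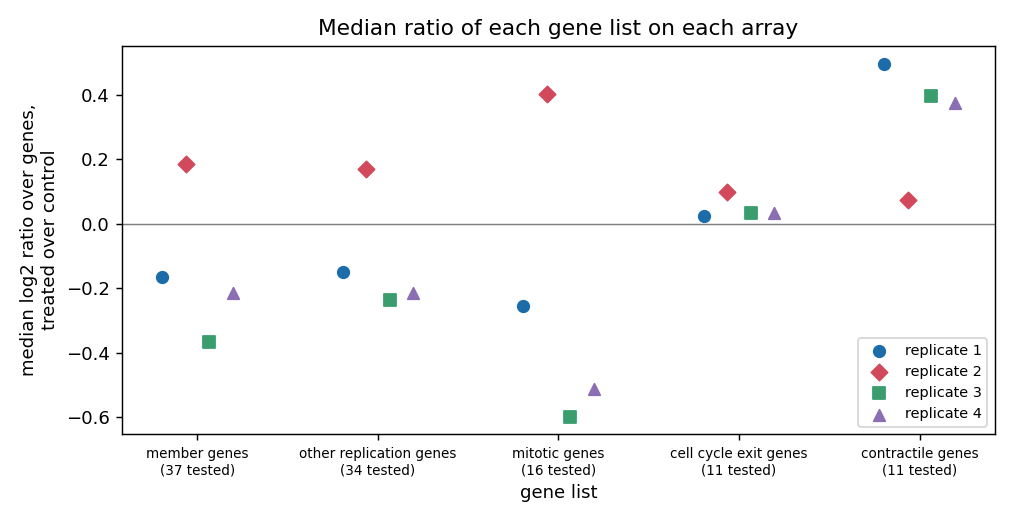
Median log2 ratio of treated over control over the tested genes of each list, on each of 4 arrays (colours). Member, other replication and mitotic genes lie above 0 on replicate 2 and below 0 on the other arrays, while contractile genes are above 0 on all and lowest on replicate 2 (0.07).

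The label of muscle cells was checked on markers. All 7 myogenic markers with a probe (MYF5, MYOD1, MYOG, DES, MYH3, ACTA1 and CKM) were well above background on all arrays, and PAX7 and MYMK had no probe. MYOG (0.33), CKM (0.33) and MYH3 (0.25) rose by limma, 3 of 7, beside 9.49% of all probes called higher. ACTA1 (0.23), MYOD1 (0.15), MYF5 (0.09) and DES (0.02) did not pass. Fibroblast markers were present too, with COL3A1, THY1, DCN and LUM above background on all arrays and PDGFRA on at most 2. They went both ways. LUM fell on all arrays, with a mean of -0.43 (limma adjusted p of 0.0131), and THY1 rose, with a mean of 0.28 (limma adjusted p of 0.0290), while DCN (-0.10) and COL3A1 (0.23) did not pass. None of the 5 endothelial markers was tested, nor any adipocyte marker. Of the immune markers, CD68 (0.00) and CD14 were above background, and CD14 fell (-0.17, limma adjusted p of 0.0385), while CD3E and ITGAM were on 0 arrays. The part of fibroblasts or immune cells in the members' values was not tested.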

How the data were processed

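Gene expression was measured in 4 two-colour horse arrays, each with treated RNA in Cy5 and control RNA in Cy3. The authors extracted the deposited spot intensities with Agilent Feature Extraction 10.10.1.1, per the file headers. The deposited log10 ratios, in the scanner files and again in the authors' series matrix, are of red over green processed signal, with a median of 0 in each series matrix column and a largest difference of 0 between both sources. Coordinates are those of the file headers' build, EquCab1, where no exon or intron annotation was used here.

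Mean intensities were corrected with normexp (offset 50) against the background medians and normalised by loess within each array (limma 3.58.1, R 4.3.3). Control spots and spots marked as outliers were left out, and spots of 1 probe were averaged. Tests covered probes marked well above background in the same channel of all 4 arrays, which left 24230 of 43603 probes (55.6%). Between 54.9% and 61.4% of gene spots were well above background in a channel. Log2 ratios derived from the deposited intensities were tested against 0 over the 4 arrays (lmFit and eBayes, two-sided), with Benjamini-Hochberg adjustment over all tested probes and a threshold of 0.05. P-values set the mean ratio against its spread between these arrays, so a constant dye difference would count as an effect. The labels do not tie the cultures to separate animals, nor settle whether the controls were separate cultures. The number of arrays limits the precision. Channel levels were scaled between arrays by Aquantile. The fit was tested on simulated data.

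Members and lists were chosen with earlier results of these data known. Named genes were the called probes, the brightest of each role, the 5 widest and 5 narrowest ranges, those against the majority sign on 2 or more arrays, those without a tested probe, and up to 3 of each comparison list by p-value. Other members were named as examples of their role after their values were seen. Alternatives were other signals, background correction, centring, filters, weights, tests, probe summaries and arrays left out. Promoter motifs were planned and are not analysed here.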

Additional observations from a re-analysis of the deposited data

Results flagged for a closer look

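In 4 of 111 sets of 4 values (the ratio, the control level and the treated level of each of 37 genes), 1 array stood apart from the other 3 by more than Dixon's critical value allows. This was 3.6% of the sets, and 3 of the 37 ratios. Chance sets apart about 1 in 20 sets that are independent. These are not, since a gene's ratio follows from its control and treated levels, so the shares cannot be weighed against that rate. It was replicate 2 in each of the 4. The log2 ratio of E2F1 was 0.198 on replicate 2, against values from -0.07 to -0.06 on the others. The log2 ratio of PCNA was 0.295 there, against -0.29 to -0.20. The log2 ratio of TK1 was 0.455 there, against -0.33 to -0.20. The treated level of POLA2 was 7.64 there on the log2 scale, against 7.30 to 7.35.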

How the results depend on the processing

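The count of 1 called member probe was 0 with arrays centred on their median and no loess, without background correction, with the filter in both channels (which drops the GINS3 probe), with the methods' t-test after adjustment, without the array as a block, and with 1 probe or the mean over probes per gene, and it was 3 with array weights. The corresponding unadjusted counts at a p under 0.05 by limma ran from 0 with median centring to 26 with array weights. Over all 24230 probes the same settings gave 1571 and 9285. Replicate 2 had the lowest of the array weights, 0.775. Leaving out 1 array gave from 0 to 33 member probes, with 33 without replicate 2 and 0 without replicate 1, 3 or 4. Over all probes it gave 3899 when replicate 2 was dropped, 38 when replicate 3 was, 2 when replicate 1 was and 0 when replicate 4 was, with 6694 at an unadjusted p under 0.05 by limma in that last case. The count over all probes of 4137 was 12 with median centring (all higher), 5 with the methods' t-test and 594 without the replicate block, where the array's pairing of both channels was dropped. The median member ratio kept its sign on each array under every alternative run, and the largest move was on replicate 1, to -0.46 with median centring, which also gave 0.34 on replicate 2 and -0.14 on replicate 4. The pattern count was 30 with 1 probe a gene, out of 37 by construction. Without Aquantile, the median member level was 0.29 in control and 0.16 in treated cells on replicate 1, against 0.32 and 0.31 for all probes, and 0.00 (-0.00106) and -0.40 on replicate 3, against -0.20 and -0.19. The cause of the other changes was not tested.

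Limits are the 4 arrays, dyes that were never swapped, and dim members. Dim members included GINS3, E2F1, POLD3, CHAF1A, CCNE1, GINS1 and MCM10, and normexp with an offset shrinks ratios of dim probes.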
